A study of Homo sapiens with 6 samples.

Results

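The proteasome genes of human forebrain organoids are described here in 6 bulk RNA-sequencing libraries. Members were taken by symbol, as every gene whose name begins with PSM, a letter from A to G and a digit. That rule found 49 of the 18056 genes listed, of which 47 had enough counts to be tested. They comprise 14 subunits of the 20S core, 17 of the 19S cap, 3 immunoproteasome subunits, the thymus form PSMB11, 4 activators, 1 inhibitor, 3 assembly chaperones of the 19S cap and 4 of the 20S core. A further 2 genes, PSMC3IP and PSME3IP1, carry matching names but encode no proteasome subunit.

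Organoids were made by a dorsal forebrain protocol from the induced pluripotent stem cell line DYR0100, which is an established line, and all were labelled wild type and batch 1. The control group of 3 libraries received vehicle, and the other group of 3 libraries received 5 µM of the amyloid-β peptide Aβ42 for 6 days. The design text calls the replicates of each condition biologically independent, and 1 cell line was used. The age of the organoids at treatment was not given in the sources used here. The comparison asks how the peptide altered gene expression.

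The proteasome is the protease that degrades most proteins tagged with ubiquitin. Its barrel-shaped 20S core holds the active sites on beta subunits inside rings of alpha subunits, and the 19S cap binds the tagged protein, removes the ubiquitin and threads the unfolded chain into the core. Activators can take the place of the cap, and interferon replaces the catalytic beta subunits with immunoproteasome forms that favour the production of peptides for antigen presentation. Loss of proteasome activity is known to raise transcription of the subunit genes through the factor NRF1, encoded by NFE2L1.

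Libraries held 16465390 to 16742958 estimated counts. The 10 cortical markers summed to 36335 to 38403 counts per library, although the cell type field of the labels names the pluripotent line. The 4 pluripotency markers summed to 20 to 34 counts per library. The 12 microglia and leukocyte markers summed to 15 to 26 counts with vehicle and 11 to 20 with Aβ42, and C1QA, C1QB, C1QC, TREM2 and TYROBP were at 0 in every library. Endothelial markers summed to 42 to 82 and 39 to 78 counts. Of 8 dividing-cell genes 0 passed the adjusted threshold, 7 were lower at an unadjusted p-value under 0.05 (11.5% of all genes were) and an edgeR fit blocked on replicate number called 7 lower (7.05%). That block rests on correlations in these data and not on a stated pairing, and the main test had no block. The summed CPM of the 8 genes was 722.8, 864.7 and 784.4 with vehicle and 490.5, 661.8 and 472.6 with Aβ42, without overlap. The part of this difference in the proteasome values was not tested, and in bulk tissue fewer cells of a type and less RNA per cell cannot be told apart.

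Tested with edgeR's quasi-likelihood method and Benjamini-Hochberg adjustment, no proteasome gene reached the threshold of 0.05, and neither did any other of the 13842 genes tested (0%). The smallest adjusted p-value was 0.118 among the members and 0.0684 over all genes. Without adjustment, 3 of 47 members (6.38%) had a p-value under 0.05, against 23.9% of all genes tested. PSME1 and PSMD13 were higher with Aβ42 (12.4% of all genes were) and PSME3 was lower (11.5%). In PSMC6, PSMD3, PSMD9, PSMD13 and PSME1 every Aβ42 library exceeded every vehicle library, and in PSMD12, PSME3 and PSMG3 every Aβ42 library was below. Over all genes tested, 13.6% were separated upward and 13.4% downward, 27% in either direction.

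The differences of the members were small. Their median log2 fold change, Aβ42 over vehicle, was 0.02 with 26 above 0 and 21 below, and the median over all genes was 0.0032. The members' median changed sign, to -0.0053, without Aβ42 replicate 2. In absolute value the median log2 fold change was 0.08 for members and 0.12 for all genes, with median standard errors (SE) of 0.06 and 0.08. The members were more deeply covered, with a median of 1266 counts against 506.3. For 34 of the 47 members (72.3%) the whole 95% interval lay within a 1.2-fold change in either direction, a bound chosen after the values were seen, and the same held for 39.0% of all genes. The 13 members whose intervals crossed that bound were PSMB3, PSMB6, PSMB7, PSMB8, PSMB10, PSMC3, PSME1, PSME2, PSME3, PSMG1, PSMG2, PSMG3 and PSMC3IP. Together the members took 0.336% ± 0.00443 (SD, n = 3) of the counts with vehicle and 0.340% ± 0.0118 (SD, n = 3) with Aβ42.

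**Figure D1:**
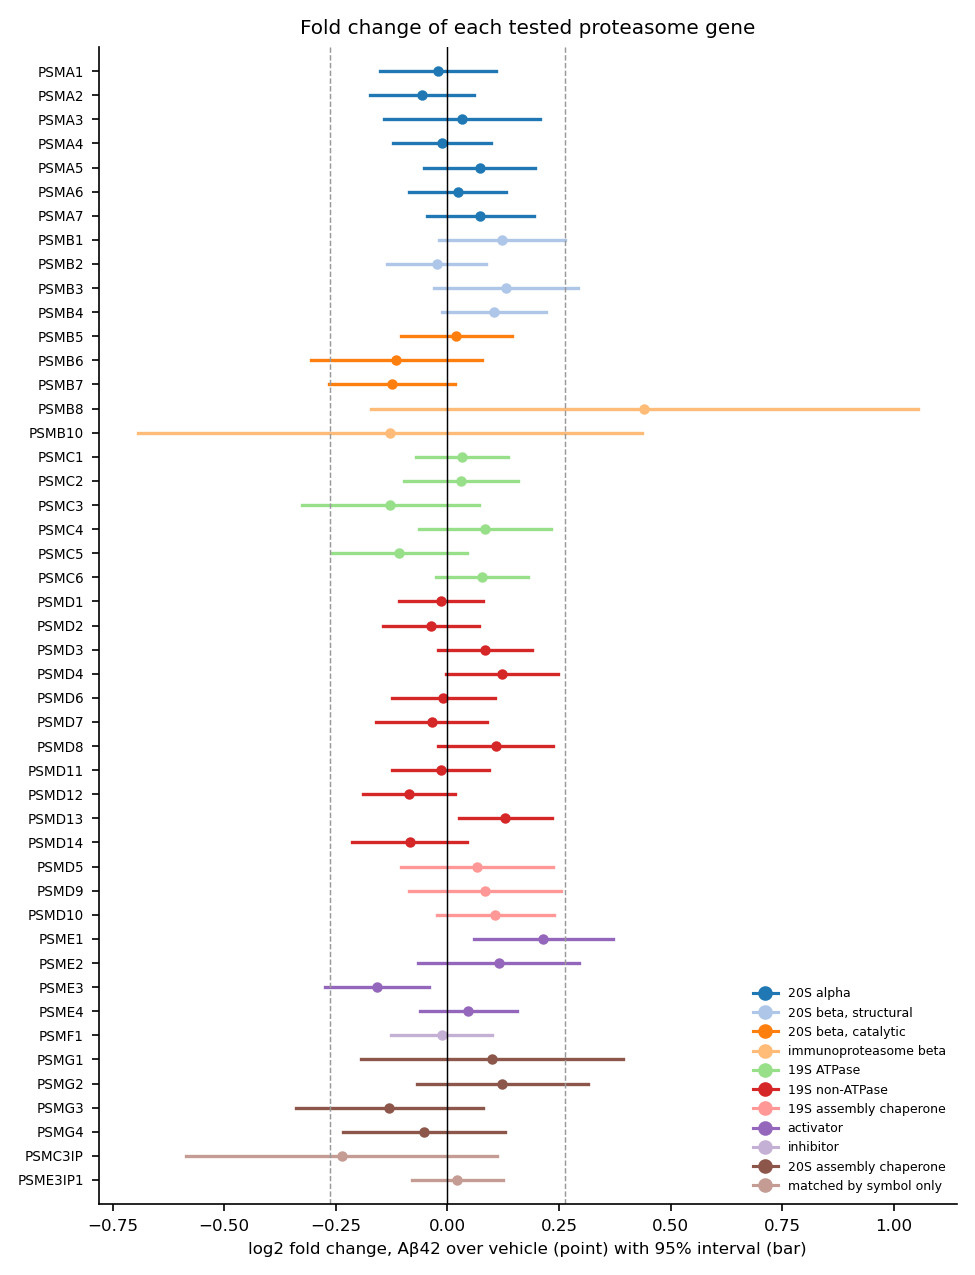
Log2 fold change of each of the 47 tested proteasome genes, Aβ42 over vehicle (horizontal axis), coloured by role. Points are estimates, bars are 95% intervals and dashed lines mark a 1.2-fold change. The bars of 34 genes lie inside the dashed lines, those of PSME1 and PSMD13 lie above 0, that of PSME3 lies below 0, and those of PSMB8 and PSMB10 are the widest.

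The alpha subunits form the outer rings of the core and gate its entrance. Their 7 genes stayed between -0.06 and 0.07 in log2 fold change with a median of 0.02, and in none of them were the groups separated in CPM. At the ends of that range, PSMA2 was at 69.0, 69.8 and 66.9 CPM with vehicle and 63.6, 68.5 and 65.7 with Aβ42, and PSMA5 was at 52.0, 53.3 and 54.2 against 53.8, 55.8 and 58.2. CPM stands for counts scaled to a common library size after TMM normalisation. In CPM both genes overlapped between groups. In TPM the groups of PSMA2 were separated downward, on a scale where the median of all genes was -0.040 as log2(TPM + 1).

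The structural beta subunits, which complete the inner rings without an active site of their own, had a median log2 fold change of 0.11 over 4 genes. PSMB4 was at 93.4, 91.7 and 94.7 CPM with vehicle and 94.0, 104.6 and 102.0 with Aβ42. Its lowest Aβ42 library lay within the vehicle range, and the log2 fold change of 0.10 ± 0.05 (SE) had an adjusted p-value of 0.255. PSMB1 and PSMB3 had similar values, 0.12 and 0.13, and PSMB2 was at -0.02.

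The constitutive catalytic subunits carry the 3 peptidase activities: PSMB5 the chymotrypsin-like, PSMB6 the caspase-like and PSMB7 the trypsin-like. PSMB5 was at 44.9, 47.1 and 44.9 CPM with vehicle and 46.3, 45.6 and 46.8 with Aβ42. The groups overlapped within a narrow range, the log2 fold change was 0.02 ± 0.06 (SE) and its 95% interval ran from -0.10 to 0.14. That sign turned to -0.04 on the log2(TPM + 1) scale, and the adjusted p-value in counts was 0.855.

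PSMB6 and PSMB7 shared a low value in Aβ42 replicate 1. PSMB6 was at 36.7, 33.5 and 33.0 CPM with vehicle and 27.9, 34.7 and 32.6 with Aβ42, a log2 fold change of -0.11 ± 0.09 (SE, adjusted p-value 0.434). PSMB7 was at 83.3, 75.1 and 80.6 CPM with vehicle and 67.8, 77.7 and 73.9 with Aβ42, a log2 fold change of -0.12 ± 0.06 (SE, adjusted p-value 0.262). In both genes Aβ42 replicate 2 lay inside the vehicle range, and neither passed the test.

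Levels of different genes were compared as TPM, which is scaled for transcript length. Mean TPM over the 6 libraries ran in the core from 37.3 for PSMA5 to 391.4 for PSMB4, a 10.5-fold range, although the core holds each of these subunits in equal number. In the cap it ran from 54.3 for PSMD12 to 222.4 for PSMD4, a 4.09-fold range. Low TPM went with a long assumed length: the Spearman correlation between TPM and counts per TPM was -0.52 over the 14 core genes and -0.68 over the 17 cap genes, which share their libraries and the length used in the TPM. The part of length assignment in these ranges was not tested.

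**Figure D2:**
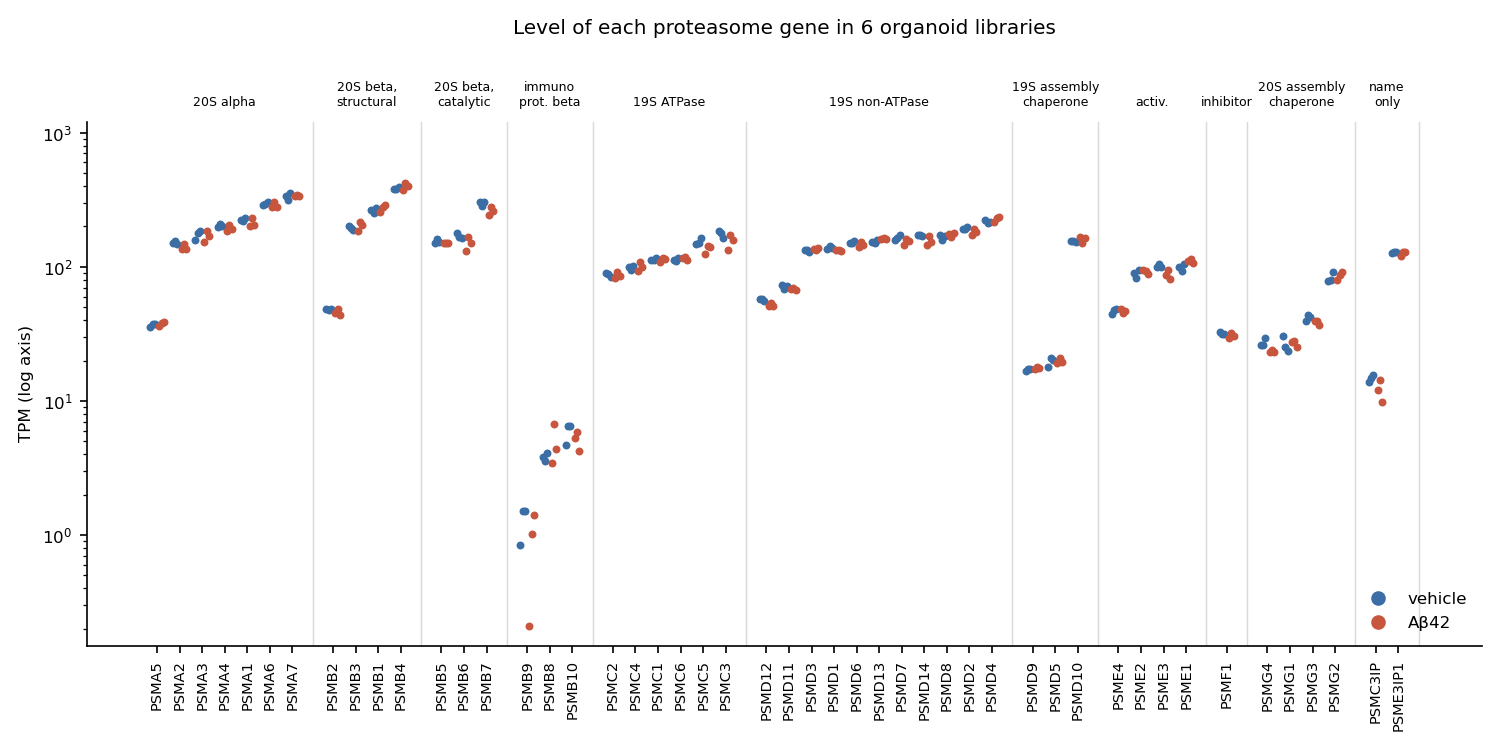
TPM of 48 proteasome genes (log axis) in 3 vehicle and 3 Aβ42 libraries, 1 point per library, grouped by role and ordered by mean level; PSMB11, at 0 counts throughout, is left out. The immunoproteasome genes PSMB9, PSMB8 and PSMB10 sit far below the core and cap genes, and the points of both groups lie close together for most genes.

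Summed over the 14 core genes, TPM was 2937 ± 46.6 (SD, n = 3) with vehicle and 2860 ± 144.5 (SD, n = 3) with Aβ42. The cap summed to 2361 ± 17.6 and 2299 ± 87.9. In both sums Aβ42 replicate 1 was the lowest library, and Aβ42 replicate 2 exceeded all vehicle libraries. The 3 catalytic genes summed to 635.0, 610.2 and 620.0 TPM with vehicle and 524.4, 596.6 and 560.4 with Aβ42. These sums do not overlap, but on log2(TPM + 1) the median of all genes was -0.040, 16.1% of genes were lower at an unadjusted p-value under 0.05, and in CPM each of the 3 genes overlapped. The 4 structural beta genes summed to 893.9 ± 14.1 and 919.4 ± 51.8 TPM.

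The immunoproteasome subunits PSMB8, PSMB9 and PSMB10 replace PSMB5, PSMB6 and PSMB7 in that order. They were barely expressed: mean TPM was 4.33, 1.09 and 5.50, and together they made up 1.74% ± 0.251 (SD, n = 3) of catalytic-subunit TPM with vehicle and 1.88% ± 0.297 (SD, n = 3) with Aβ42. PSMB8 had 23, 20 and 24 counts with vehicle and 22, 41 and 29 with Aβ42. Its log2 fold change of 0.44 ± 0.28 (SE) was the largest of any member, but the groups overlapped, the 95% interval ran from -0.17 to 1.05, and the adjusted p-value was 0.354.

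PSMB10 was at 1.26, 1.70 and 1.71 CPM with vehicle and 1.46, 1.603 and 1.20 with Aβ42. The groups overlapped, at a log2 fold change of -0.13 ± 0.26 (SE, adjusted p-value 0.786). PSMB9 had 4, 7 and 7 counts with vehicle and 1, 5 and 7 with Aβ42, too few for the test. PSMB11, the thymus-specific catalytic subunit, stood at 0 counts in all 6 libraries, a result that a true level of up to 3 counts, or 0.179 to 0.182 CPM, would also allow.

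As ratios of TPM, PSMB8 was 2.54%, 2.19% and 2.67% of PSMB5 with vehicle and 2.26%, 4.44% and 2.91% with Aβ42. The highest value came from Aβ42 replicate 2 and the groups overlapped (exact two-sided permutation p = 0.4, adjusted over 3 ratios 1). PSMB9 was 0.769% ± 0.258 (SD, n = 3) of PSMB6 with vehicle and 0.568% ± 0.386 (SD, n = 3) with Aβ42 (exact permutation p = 0.7), on 1 to 7 counts of PSMB9 per library. PSMB10 was 1.99% ± 0.403 (SD, n = 3) of PSMB7 with vehicle and 1.97% ± 0.288 (SD, n = 3) with Aβ42 (exact permutation p = 1). With 3 libraries against 3 this test cannot go below 0.1, and at these counts a change in subunit composition was not detectable.

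**Figure D3:**
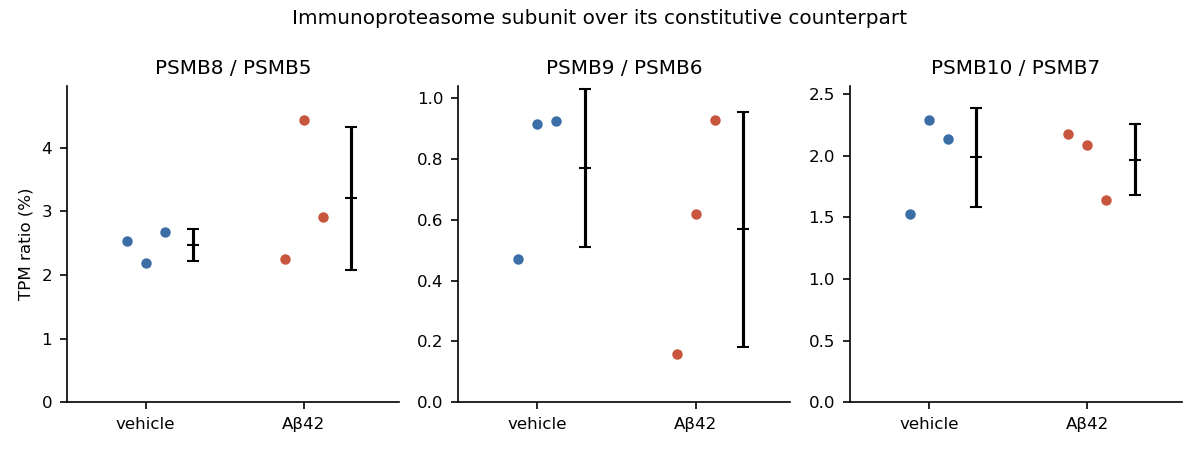
TPM of each immunoproteasome subunit as a percentage of its constitutive counterpart, by library (points: vehicle left, Aβ42 right), with the mean and SD of 3 libraries as bars. The groups overlap in all 3 panels, and Aβ42 replicate 2 has the highest PSMB8 to PSMB5 ratio, 4.44%.

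The 6 ATPases of the cap form the ring that unfolds substrates. Their median log2 fold change was 0.03, from -0.13 for PSMC3 to 0.08 for PSMC4, and on log2(TPM + 1) the median was -0.010. PSMC5 was at 62.0, 61.4 and 67.8 CPM with vehicle and 54.1, 61.4 and 62.0 with Aβ42, and PSMC3 was at 93.3, 88.7 and 82.3 against 69.3, 89.2 and 83.4. As in PSMB6 and PSMB7, Aβ42 replicate 1 was lowest in both, the other Aβ42 libraries were in or near the vehicle range, and the adjusted p-values were 0.357 and 0.401.

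The 11 other cap subunits found by symbol include ubiquitin receptors and the deubiquitinase. Their median log2 fold change was -0.01. Cap proteins with other symbols, such as ADRM1 and SEM1, were counted with the proteasome-associated proteins. PSMD13, a scaffold subunit of the lid, was at 80.0, 77.6 and 81.4 CPM with vehicle and 86.5, 87.1 and 87.7 with Aβ42. The groups did not overlap, and the Aβ42 libraries lay close together. The log2 fold change was 0.13 ± 0.05 (SE), with a 95% interval of 0.02 to 0.23, an unadjusted p-value of 0.0197 and an adjusted one of 0.141.

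PSMD4, a ubiquitin receptor, was at 92.5, 86.2 and 86.96 CPM with vehicle and 90.4, 96.98 and 101.7 with Aβ42 (log2 fold change 0.12 ± 0.06 SE, adjusted p-value 0.220). Its groups overlapped through Aβ42 replicate 1. PSMD14, the deubiquitinase that removes the ubiquitin chain, was at 88.6, 86.94 and 86.96 CPM with vehicle and 76.5, 88.4 and 82.7 with Aβ42 (-0.08 ± 0.06 SE, adjusted p-value 0.396), again overlapping. PSMD12, a scaffold subunit of the lid like PSMD13, was at 96.3, 94.7 and 93.3 CPM with vehicle and 87.3, 91.0 and 89.3 with Aβ42. All its Aβ42 libraries were below all vehicle libraries, by a log2 fold change of -0.09 ± 0.05 (SE, adjusted p-value 0.279).

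The activators differed among themselves in direction. PSME1 and PSME2 encode the subunits of PA28αβ, the interferon-induced activator, PSME3 encodes the nuclear activator PA28γ, and PSME4 encodes PA200. The genes PSME1 (chr14:24136194-24138962) and PSME2 (chr14:24143365-24146610) lie 4.40 kb apart on GRCh38.p14, and PSMB8 and PSMB9 lie 9.51 kb apart on chromosome 6, with TAP1 of the peptide transporter between them.

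PSME1 was at 26.7, 24.4 and 27.4 CPM with vehicle and 30.3, 30.9 and 29.9 with Aβ42. Every Aβ42 library exceeded every vehicle library. The means were 26.1 ± 1.57 (SD, n = 3) and 30.3 ± 0.507 (SD, n = 3) CPM, a 1.16-fold difference with a log2 value of 0.21 ± 0.07 (SE), a 95% interval of 0.06 to 0.37, an unadjusted p-value of 0.0117 and an adjusted one of 0.118. PSME2 was at 18.1, 16.9 and 19.1 CPM with vehicle and 20.1, 19.5 and 19.01 with Aβ42. Vehicle replicate 3 overlapped the Aβ42 range, and the log2 fold change was 0.11 ± 0.08 (SE, adjusted p-value 0.41).

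PSME3 went the other way. It was at 118.6, 122.1 and 117.5 CPM with vehicle and 105.9, 113.6 and 101.6 with Aβ42, without overlap. The means were 119.4 ± 2.39 (SD, n = 3) and 107.0 ± 6.08 (SD, n = 3) CPM, a 0.897-fold level and a log2 fold change of -0.16 ± 0.05 (SE), with a 95% interval of -0.27 to -0.04, an unadjusted p-value of 0.0124 and an adjusted one of 0.120. PSME3 passed the threshold without Aβ42 replicate 2 (adjusted p-value 0.0102, where 23.1% of genes were called, 11.6% lower) and with gene-length trend and replicate number both in the edgeR fit (0.0331, where 14.4% of genes were called, 6.97% lower). With the replicate number alone as a block it was at 0.0526, when 14.2% of all genes (7.12% higher, 7.05% lower) but 0 members were called. PSME4 was at 129.3, 134.7 and 138.4 CPM with vehicle and 141.6, 132.9 and 141.1 with Aβ42, overlapping, at a log2 fold change of 0.05 (adjusted p-value 0.58).

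On the length-scaled measure PSME1 stood at 101.1%, 89.8% and 105.4% of PSME3 TPM with vehicle and at 126.8%, 121.1% and 130.5% with Aβ42. This pair was chosen after its values were seen, so the separation is a description. The 4 activators summed to 336.3 ± 9.80 TPM (SD, n = 3) with vehicle and 336.8 ± 11.6 (SD, n = 3) with Aβ42. PSMF1, which binds the core and inhibits it in the test tube, was at 105.5, 100.02 and 100.1 CPM with vehicle and 96.0, 104.2 and 102.8 with Aβ42, overlapping, with a log2 fold change of -0.01 whose sign changed in 5 of 17 alternative analyses (adjusted p-value 0.90).

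**Figure D4:**
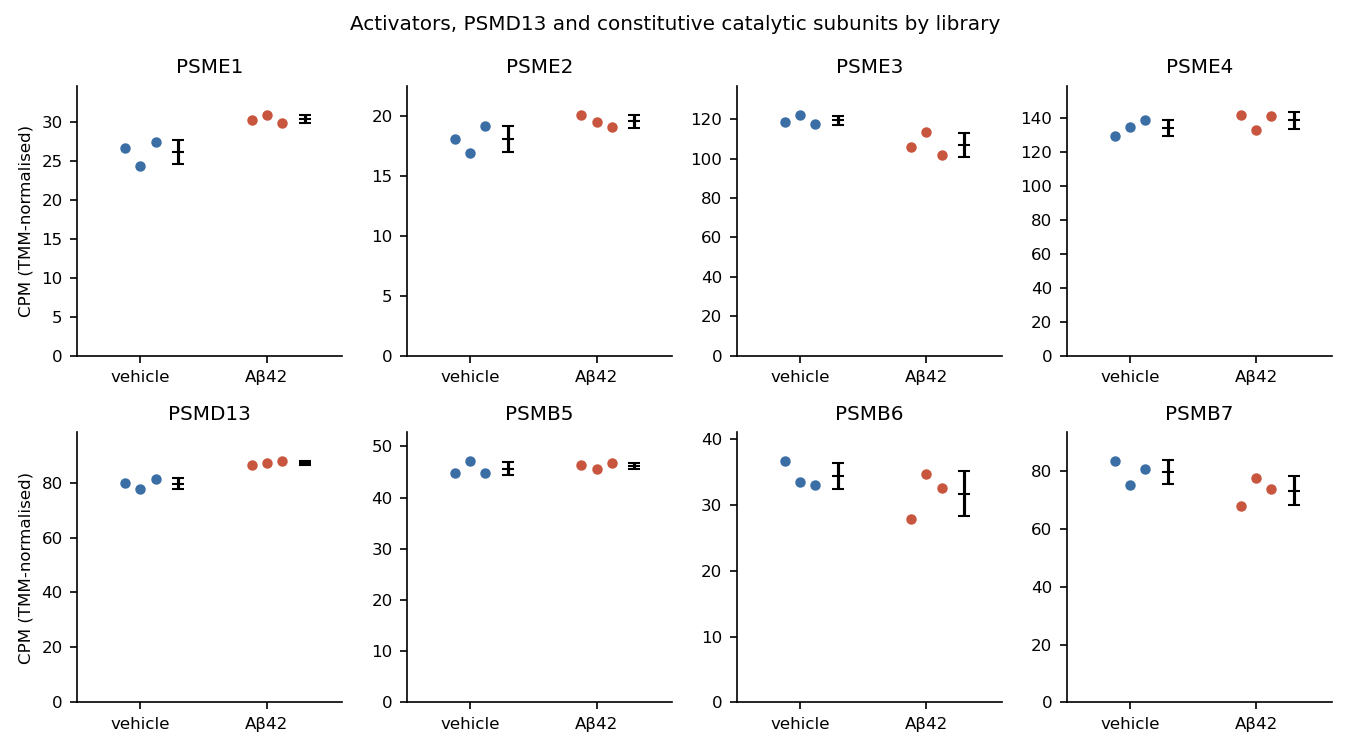
TMM-normalised CPM by library for the 4 activators, PSMD13 and the 3 constitutive catalytic subunits, with the mean and SD of 3 libraries per group as bars. PSME1 and PSMD13 are separated upward and PSME3 downward with Aβ42, and the groups overlap in the other panels.

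Promoter sequence was available for 43 of the 49 members, as 300 bases from 250 before to 50 after a RefSeq start on GRCh38.p14. Some genes have several starts, and a gene counts as matched if any of its windows holds the motif. On both strands 3 motifs were searched. The core of the interferon-stimulated response element, 2 copies of GAAA with any 2 bases between them, was found in 7 members (16.3%): PSMA4, PSMB4, PSMB8, PSMB10, PSME1, PSME2 and PSMG4. It was found in 4.10% of the 14376 listed genes with a promoter, which have 20566 windows. PSMB9 held no match, and those of PSMB8 and PSMG4 lie in windows whose start is inside the gene. In 5 of the 7 the letters were the same, GAAAGCGAAA or its reverse complement. These stretches are shown because PSMB8, PSMB10, PSME1, PSME2 and PSMG4 share them, with the motif in capitals, on the strand of each gene. A match of letters is a description of the window only.
PSMB8, chr6:32844032-32844061, minus strand: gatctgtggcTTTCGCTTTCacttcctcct
PSMB10, chr16:67936852-67936881, minus strand: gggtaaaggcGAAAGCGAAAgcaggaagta
PSME1, chr14:24136190-24136219, plus strand: ccctaccgcTTTCGCTTTCccttcgcggtg
PSME2, chr14:24146619-24146648, minus strand: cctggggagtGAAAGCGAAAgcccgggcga
PSMG4, chr6:3258904-3258933, plus strand: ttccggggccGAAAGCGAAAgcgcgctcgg

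Of these 5 genes PSME1 was separated upward in CPM, as 13.6% of all genes were, and the other 4 overlapped. In TPM PSMG4 was separated downward, as were PSMA2, PSMB7, PSMC5, PSMD1, PSMD2, PSMD12, PSMD14 and PSME3. Upward in TPM were PSMD9, PSMD13 and PSME1. The median of all genes on log2(TPM + 1) was -0.040, and the share of all genes separated in TPM is not given here. PSMB8 was 0.44 ± 0.28, PSMB10 -0.13 ± 0.26, PSME2 0.11 ± 0.08 and PSMG4 -0.05 ± 0.08 in log2 fold change (± SE), and none passed the test.

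The core of the antioxidant response element, TGACNNNGC, which NRF1 and NRF2 bind, was found in 15 members (34.9%) and in 18.3% of all genes with a promoter. The CCAAT box, CCAAT, was found in 22 members (51.2%) and in 42.3% of all genes with a promoter. Among the activators TGACNNNGC was present in PSME1, PSME2 and PSME4. The 250 bases before the start are printed for the activators that differed in opposite directions, with TGACNNNGC in capitals in PSME1 and the CCAAT box, read on the other strand, in capitals in PSME3.
PSME1, chr14:24135944-24136193, plus strand: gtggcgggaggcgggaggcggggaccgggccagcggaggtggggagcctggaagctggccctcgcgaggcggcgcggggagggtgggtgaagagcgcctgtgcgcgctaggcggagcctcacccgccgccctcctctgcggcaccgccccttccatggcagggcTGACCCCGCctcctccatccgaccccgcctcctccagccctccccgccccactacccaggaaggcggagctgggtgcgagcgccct
PSME3, chr17:42833147-42833396, plus strand: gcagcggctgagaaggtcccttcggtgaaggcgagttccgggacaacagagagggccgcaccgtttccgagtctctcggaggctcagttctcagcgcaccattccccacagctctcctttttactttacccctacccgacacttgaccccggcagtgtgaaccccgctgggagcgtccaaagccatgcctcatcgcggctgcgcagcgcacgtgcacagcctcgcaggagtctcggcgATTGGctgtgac

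Assembly chaperones among the members had log2 fold changes from -0.13 to 0.12, and the intervals of PSMG1, PSMG2 and PSMG3 crossed the 1.2-fold bound. The 19S chaperones PSMD5, PSMD9 and PSMD10 had log2 fold changes of 0.07 to 0.11, and PSMD9 was separated by a narrow margin, at 16.8, 17.0 and 16.9 CPM against 17.7, 17.9 and 18.1 (adjusted p-value 0.525). PSMD10, also known as the oncoprotein gankyrin, was at 72.8, 71.7 and 70.1 CPM with vehicle and 79.8, 71.0 and 80.6 with Aβ42 and passed the threshold only in the fit without Aβ42 replicate 2, its lowest Aβ42 library, where 11.5% of all genes were called higher. The 20S chaperones PSMG1 to PSMG4 ranged from -0.13 to 0.12 with a median of 0.02. PSMG3 was at 12.3, 11.6 and 11.7 CPM with vehicle and 11.03, 10.7 and 10.8 with Aβ42, separated downward (-0.13 ± 0.09 SE, adjusted p-value 0.419).

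Of the genes that match by name only, PSMC3IP, a recombination factor, had a log2 fold change of -0.24 ± 0.16 (SE, adjusted p-value 0.379), and PSME3IP1, a partner of PA28γ, was at 0.02.

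Genes around the proteasome were read from 5 lists, and none of their members passed the adjusted threshold in the main test. DESeq2, also without a block, called 3 ubiquitin, 1 shuttle, 1 NRF1 and NRF2 and 4 interferon genes higher, beside 384 of 13842 genes. With no filter on low counts, edgeR called 2 ubiquitin and 2 interferon genes higher, beside 189 of 17374. PAAF1, RPS27A, RAD23B, MAFF, HLA-C and HLA-E also passed without Aβ42 replicate 2, where 11.5% of genes were called higher. Beside each count at an unadjusted p-value stand 12.4% of all genes higher and 11.5% lower. Of 13 proteasome-associated proteins 8 were above 0 and 5 below, with a median log2 fold change of 0.04. Unadjusted p-values under 0.05 were found for 2 upward and 1 downward. POMP, the chaperone that completes the assembly of the core, was at 53.8, 51.0 and 53.8 CPM with vehicle and 57.8, 56.7 and 60.8 with Aβ42. The groups were separated (log2 fold change 0.14 ± 0.06 SE, adjusted p-value 0.163). PAAF1, which binds cap ATPases, was at 0.21 ± 0.09 (SE, adjusted p-value 0.197), with overlapping groups.

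The genes that supply ubiquitin, and the E1 enzymes that activate it, formed a short list. Of 6 ubiquitin and E1 genes 5 were above 0, 3 of them at an unadjusted p-value under 0.05, and the median was 0.15. RPS27A, a fusion of ubiquitin with a ribosomal protein, was at 222.2, 207.7 and 204.4 CPM with vehicle and 248.2, 239.6 and 258.6 with Aβ42. The groups were separated upward, at a log2 fold change of 0.23 ± 0.05 (SE).

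Its adjusted p-value was 0.0697, and with the replicate number as a block in edgeR it passed the threshold (0.0066), when 7.12% of all genes were called higher. The pairing behind that block was taken from these data. UBB, which encodes a chain of ubiquitin repeats, overlapped between groups at 0.07 ± 0.07 (SE, adjusted p-value 0.555). RPS27A has 20 pseudogenes named in RefSeq, so its reads could be split between copies.

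Shuttle factors carry ubiquitin-tagged proteins to the proteasome, and p97, encoded by VCP, extracts them from complexes. Of these 11 genes 8 were above 0, with a median of 0.07, 2 upward and 1 downward at an unadjusted p-value under 0.05. RAD23B was at 239.5, 245.6 and 256.9 CPM with vehicle and 288.8, 277.6 and 278.8 with Aβ42, separated, at 0.19 ± 0.05 (SE, adjusted p-value 0.0734). With the block, whose pairing was taken from these data, the adjusted p-value of RAD23B was 0.0203. VCP itself was at 0.01.

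The NRF1 and NRF2 list, which shares DDI2 with the shuttle list, had 9 of 12 genes above 0, a median of 0.10 and 2 upward at an unadjusted p-value under 0.05. NFE2L1 was at 228.8, 221.4 and 221.1 CPM with vehicle and 231.5, 232.9 and 252.6 with Aβ42. The groups were separated narrowly (0.09 ± 0.05 SE, adjusted p-value 0.264). MAFF, a small partner protein of these factors, was at 12.01, 10.6 and 13.3 CPM against 17.8, 14.02 and 18.7, separated, at 0.49 ± 0.13 (SE, adjusted p-value 0.0798). With the block, whose pairing was taken from these data, the adjusted p-value of MAFF was 0.00343. SYVN1, a ubiquitin ligase of the endoplasmic reticulum, was at 0.19 ± 0.09 (SE, adjusted p-value 0.209).

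In the interferon and antigen presentation list 13 of 16 genes were above 0, with a median of 0.18, and 7 were higher at an unadjusted p-value under 0.05, against 12.4% of all genes. HLA-C, a classical class I molecule, was at 29.3, 28.2 and 30.7 CPM with vehicle and 40.8, 35.9 and 40.2 with Aβ42. HLA-E, the non-classical one, was at 21.0, 18.4 and 20.7 CPM against 33.6, 24.1 and 30.7. Both were separated, at 0.41 ± 0.07 and 0.56 ± 0.12 (SE), with adjusted p-values of 0.0684 and 0.0697. With the block, whose pairing was taken from these data, the adjusted p-values were 0.00138 and 0.000493. The block called 6 genes of the list higher (7.12% of all genes were), and none of PSMB8, PSMB10, PSME1 and PSME2, whose products serve the same route. Reads of HLA genes can be shared between the members of that family.

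**Figure D5:**
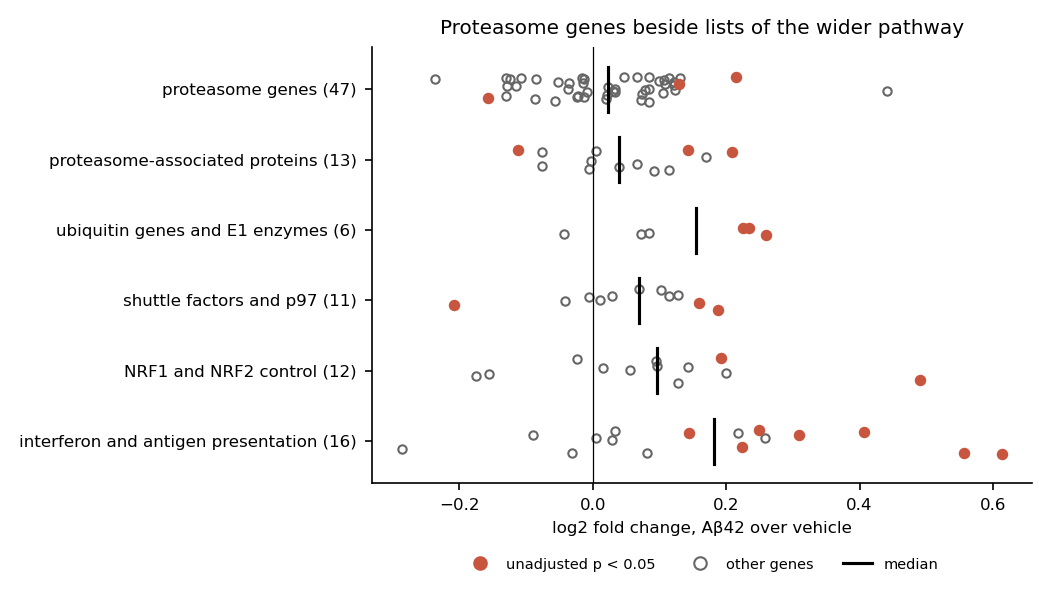
Log2 fold change, Aβ42 over vehicle, of each tested gene (points) in the proteasome set and 5 surrounding lists, with the number of genes in brackets and the median as a vertical bar. Filled points have an unadjusted p-value under 0.05; they number 3 of 47 in the proteasome set, and the medians run from 0.02 there to 0.18 in the interferon list.

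Small differences depended on the scale. Judged by counts per TPM, the members are short, with a median length rank of 12.1% among genes tested, and over all genes the Spearman correlation between log2 fold change and length was -0.16, given as a description. On log2(TPM + 1), tested with limma, the members' median log2 difference was -0.04, as was that of all genes (-0.040), and 8 members were lower and 1 higher at an unadjusted p-value under 0.05, beside 16.1% and 7.65% of all genes. No member passed the adjusted threshold on that scale either.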

How the data were processed

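Poly(A)+ RNA was sequenced by the submitters from 3 vehicle and 3 Aβ42 libraries, prepared with a stranded kit and PCR. The authors deposited estimated counts and TPM per gene. FastQC, STAR 2.7.11b, featureCounts 2.0.6 and GRCh38 are named, per the submitters' processing notes, with no role or order, and whether counting used strand is not given in the sources used here. Of the deposited counts, 86.9% to 87.5% were whole (44 of 49 members were whole in every library), so they were treated as estimated counts and rounded, and reads could have been divided between copies. RefSeq names pseudogenes of 21 members, among them 13 of PSMC1 and 6 of PSME2. The deposited TPM, scaled by the authors for length and total, were used for levels between genes and as log2(TPM + 1) in limma.

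Genes were filtered with filterByExpr, scaled by TMM and tested in edgeR 4.0.16 (quasi-likelihood, robust, two-sided, no block, 13842 genes, R 4.3.3), with Benjamini-Hochberg adjustment over all of them and a threshold of 0.05. SE was taken as |log2 fold change| over the root of F. Alternatives used limma 3.58.1 and DESeq2 1.42.0. The procedure was also run on simulated counts with a common dispersion and independent libraries. These lack the deviations shared between real libraries, so that run does not cover them. Totals were 16465390 to 16742958 counts, and the biological coefficient of variation was 6.75%. No molecular identifiers are mentioned, so limits from counts cover counting error only.

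Deviations from group means correlated between same-numbered libraries over 12186 genes at 0.181, 0.384 and 0.129 for numbers 1, 2 and 3. All were above 0.1, so same-numbered libraries were treated as pairs in the fits with a replicate block, from the data alone. The main test did not pair them. Vehicle 3 with Aβ42 1 (0.176) and vehicle 1 with Aβ42 3 (0.149) correlated as highly, so only number 2 stands apart. The members and lists were chosen with earlier results of these data known. Values per library are given for the 4 lowest p-values among members higher and among members lower, the catalytic, immunoproteasome and activator genes, PSMF1, PSMD4 and PSMD14, and POMP, NFE2L1, UBB and, per list, the pair of genes of lowest p-value, except that results of some genes are not reported here; PSMA2, PSMA5, PSMC3, PSMD9, PSMD10 and PSMG3 were added after their values were seen. Promoters came from RefSeq, GRCh38.p14.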

Additional observations from a re-analysis of the deposited data

How the results depend on the processing

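Of 47 members, 45 passed the adjusted threshold in none of 17 alternatives, and 32 kept their sign in all of them; PSME3 (lower) and PSMD10 (higher) passed in at least 1. With the replicate block edgeR called 986 genes higher and 976 lower but 0 members, and with the length trend removed as well 1035 and 965, with 1 member lower. DESeq2 called 384 and 420 genes (no adjusted p-value for 1075), no filter on low counts 189 and 171, and leaving out 1 library 0 to 1607 higher and 0 to 1617 lower, with 0 to 1 members either way. The highest of these counts came without Aβ42 replicate 2. Libraries were also compared in pairs by the mean chi-square per gene of their counts, which is higher for more unlike libraries. Aβ42 replicate 2 was at 3.16, 7.71 and 4.58 against vehicle replicates 1, 2 and 3. Against Aβ42 replicates 1 and 3 it was at 9.40 and 8.49, and these were at 3.62 against each other. The cause was not tested.

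At an unadjusted p-value under 0.05, members higher (2 in the main analysis) numbered 1 with DESeq2, 1 with the length trend removed, with or without the block, 1 on both TPM scales, 4 with upper-quartile scaling, and 0 to 7 without 1 library. Members lower (1) numbered 5 with the length trend removed, 6 with the block too, 8 on both TPM scales and 0 to 6 without 1 library.

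Medians on log2(TPM + 1) and log2(TPM + 0.1), in that order where they differ, were -0.036 for members, -0.041 for the 20S core, -0.056 and -0.057 for the 19S cap, -0.039 and -0.040 for alpha subunits, 0.044 for structural beta, -0.010 and -0.011 for cap ATPases, -0.060 for cap non-ATPases, 0.036 and 0.038 for 19S chaperones, 0.026 for activators and -0.038 and -0.039 for 20S chaperones. For the lists they were 0.0090 and 0.0091 for associated proteins, 0.053 and 0.054 for ubiquitin genes, 0.050 and 0.051 for NRF1 and NRF2 control and 0.061 for interferon. With the length trend removed, without and with the replicate block, medians were 0.0070 and 0.0060 for members, -0.025 for the core, 0.018 for cap ATPases, -0.0084 and -0.0054 for 20S chaperones, -0.027 and -0.028 for alpha, 0.054 for structural beta, 0.065 and 0.064 for 19S chaperones and 0.020 for associated proteins. Upper-quartile scaling gave 0.0060 for the 19S cap, 0.00052 for its non-ATPases, 0.099 for 19S chaperones and 0.055 for associated proteins, and no filter gave -0.13 for immunoproteasome genes, as PSMB9 then counts.

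Without 1 library the medians ranged from -0.0053 to 0.043 for members, -0.016 to 0.032 for the core, -0.017 to 0.019 for the cap, 0.010 to 0.064 for cap ATPases, -0.024 to 0.0096 for non-ATPases, -0.0092 to 0.030 for 20S chaperones, -0.020 to 0.24 for immunoproteasome genes, -0.17 to -0.030 for catalytic genes, -0.027 to 0.043 for alpha, 0.075 to 0.098 for 19S chaperones, -0.012 to 0.076 for associated proteins and 0.071 to 0.12 for NRF1 and NRF2 control. The log2 ratio of PSMB9 to PSMB6 ranged from -1.23 to 0.041, with the sign changed without Aβ42 replicate 1, and that of PSMB10 to PSMB7 from -0.18 to 0.12, with the sign changed without vehicle replicate 2 (0.11), vehicle replicate 3 (0.061) or Aβ42 replicate 3 (0.12). PSMB5 changed sign with the length trend removed (-0.030, and -0.029 with the block) and on the TPM scales (-0.042 and -0.043). PSMF1 changed sign with the length trend removed (0.026, also with the block) and with upper-quartile scaling (0.0024), and ranged from -0.036 to 0.024 without 1 library, above 0 without Aβ42 replicate 1 or vehicle replicate 1 (0.013). The other 27 of 29 genes examined singly kept their direction. Low counts limit PSMB8, PSMB9 and PSMB10.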
